A study of Mus musculus with 6 samples.

Results

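Complex I, or NADH:ubiquinone oxidoreductase, is the entry point of the mitochondrial respiratory chain. It takes electrons from NADH on a peripheral arm in the matrix, passes them along a flavin and a row of iron-sulfur clusters to ubiquinone, and pumps protons through a membrane arm. Core subunits carry the chemistry, accessory subunits surround and stabilise them, and assembly factors build the complex but are not part of it. In the ovarian follicle, cumulus cells surround the oocyte and supply it with pyruvate from glycolysis, which the oocyte oxidises in its mitochondria.

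The members were all genes whose symbol begins with Nduf. The platform's gene table holds 49 such symbols, and 42 of them had a probe set naming no other gene, out of 22180 genes measured in this way. Of the 42, 34 were counted as subunits by their symbols and 8 (Ndufaf1 to Ndufaf8) as assembly factors. Among the 34, Ndufa4 is now known as a subunit of complex IV and Ndufa4l2 is its paralog, so 32 were complex I subunits, 6 core and 26 accessory. The subunits that the mitochondrial genome encodes are not analysed here. The other 7 symbols shared their probe sets with another gene and are described separately.

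RNA came from cumulus-oocyte complexes of wildtype mice primed for 46 h with 5 IU of equine chorionic gonadotropin, which stimulates follicle growth. The labels give the age of the females as 21 days in the growth protocol and 23 days in the sample characteristics. Groups of 100 complexes were cultured with DMSO, the vehicle, or with Torin1 at 5 µM, which blocks the ATP site of the growth-controlling kinase MTOR, for 14 h by the sample source and 16 h by the growth protocol. All 6 cultures also contained 3 mg/ml of bovine serum albumin and 5 µM milrinone, a phosphodiesterase inhibitor that holds oocytes in meiotic arrest. There were 3 arrays per group, and the labels leave unsaid whether samples of a group came from separate mice or cultures. The p-values therefore reflect the spread among these arrays alone, and that spread may be technical. Torin1 sample 3 bears the same short name as sample 2 in its description and stood apart on the second principal component (30.4 against -14.1 and -19.8).

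Oocyte and cumulus cell RNA was measured together. All 18 oocyte markers, among them Gdf9, Bmp15 and Zp3, were brighter than the median gene, as were all 14 measured cumulus and granulosa markers, such as Fshr and Inha. The summed intensity of the oocyte markers was 7802 to 8292 in DMSO and 8622 to 9645 in Torin1, and 2 of them, Dppa3 and Figla, were called higher. For the cumulus and granulosa markers the sum was 7296 to 7563 in DMSO and 4211 to 4610 in Torin1, and 12 of 14 were called lower. Summed intensities were far lower for markers of other ovarian cells. The 6 endothelial markers summed to 101.6 to 107.8 in DMSO and 152.3 to 268.4 in Torin1, and Cdh5 was called higher. The 7 leukocyte markers summed to 71.42 to 77.79 in DMSO and 82.2 to 86.77 in Torin1, and Cd68 was called higher. The groups did not overlap in either sum. Cdh5 had a log2 change of 2.33, and the other 5 endothelial markers, overlapping except for Kdr, had -0.025 to 0.49. Cd68 had 0.54, and the other 6 leukocyte markers, all overlapping between groups, had -0.0029 to 0.094. For the 4 theca and luteal markers the sums overlapped (51.26 to 78.02 and 62.99 to 144.1), and Star was called higher. No marker was listed at 0, the lowest single intensity being 4.19. In such a mixture, fewer cells of a type and less RNA per cell cannot be told apart, and the part of these shifts in the complex I values was not tested.

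Complex I genes were lower in Torin1. Of the 34 subunit genes, 19 fell, 0 rose and 15 were not called, by limma at an adjusted p below 0.05 over all genes (at an unadjusted p below 0.05, 26 were lower and 0 higher). Over all 22180 genes 6.94% were called lower and 5.13% higher, while 55.9% of the subunit genes were called lower. The median log2 change was -0.44 for the subunit genes and 0.0098 for all genes, with 32 of the 34 below 0. In 27 subunit genes every Torin1 value lay below every DMSO value, a pattern seen in 14.3% of all genes. Among the assembly factor genes, 2 of 8 fell, 0 rose, and the median was -0.23 (at an unadjusted p below 0.05, 3 were lower and 0 higher). The difference between subunits and assembly factors was not tested.

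**Figure D1:**
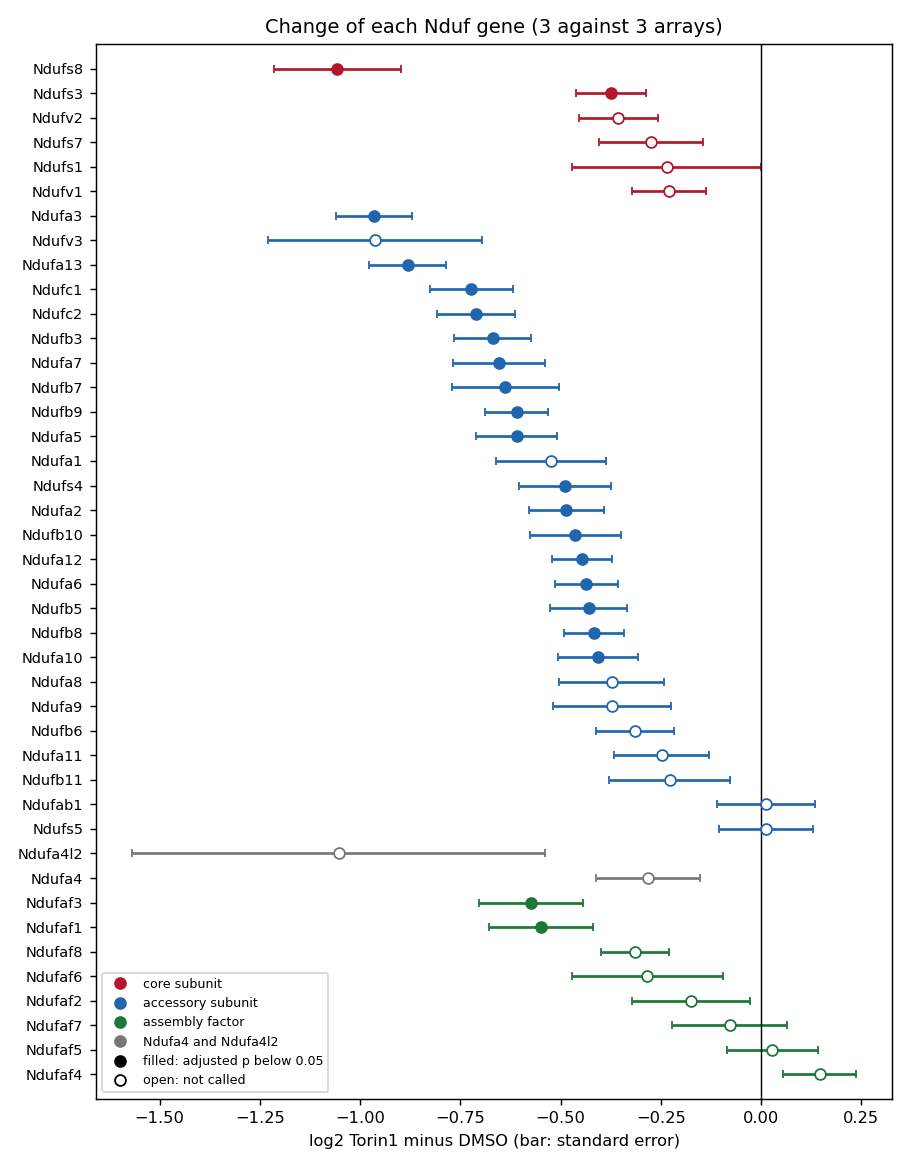
Change of each of the 42 Nduf genes as log2 Torin1 minus DMSO, with bars for the standard error and filled points for genes called at an adjusted p below 0.05. Points of 32 of 34 subunit genes lie to the left of 0, from -1.06 for Ndufs8 upward, and the assembly factors run from -0.57 to 0.15.

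The summed intensity of the 34 subunit genes was 7694, 7566 and 7536 in DMSO samples 1, 2 and 3. It was 5351, 5753 and 4713 in Torin1 samples 1, 2 and 3. The DMSO sums thus lay close together, every Torin1 sum was below them, and the Torin1 mean was 69.4% of the DMSO mean. For the 8 assembly factors the sums were 420, 348 and 378 in DMSO and 324, 364 and 337 in Torin1, so these groups overlapped. These are relative amounts, since RMA, which the submitters' processing notes name, usually brings all arrays of a set to a common distribution of values.

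Torin1 sample 3 had the lowest Torin1 value in 27 of the 34 subunit genes, and Torin1 sample 2 the highest in 23. Over all genes, sample 3 was the lowest Torin1 array in 34.7%, and over all genes called lower in 50.2%. Without Torin1 sample 3, 18 subunit genes were called lower, where Ndufa10 and Ndufs3 had lost the call and Ndufv3 had gained it, and the median of all 34 was -0.39. Single DMSO arrays moved the count by more: it was 12 without DMSO 1, 12 without DMSO 2 and 11 without DMSO 3, when 4.6%, 5% and 3.81% of all genes were called lower.

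**Figure D2:**
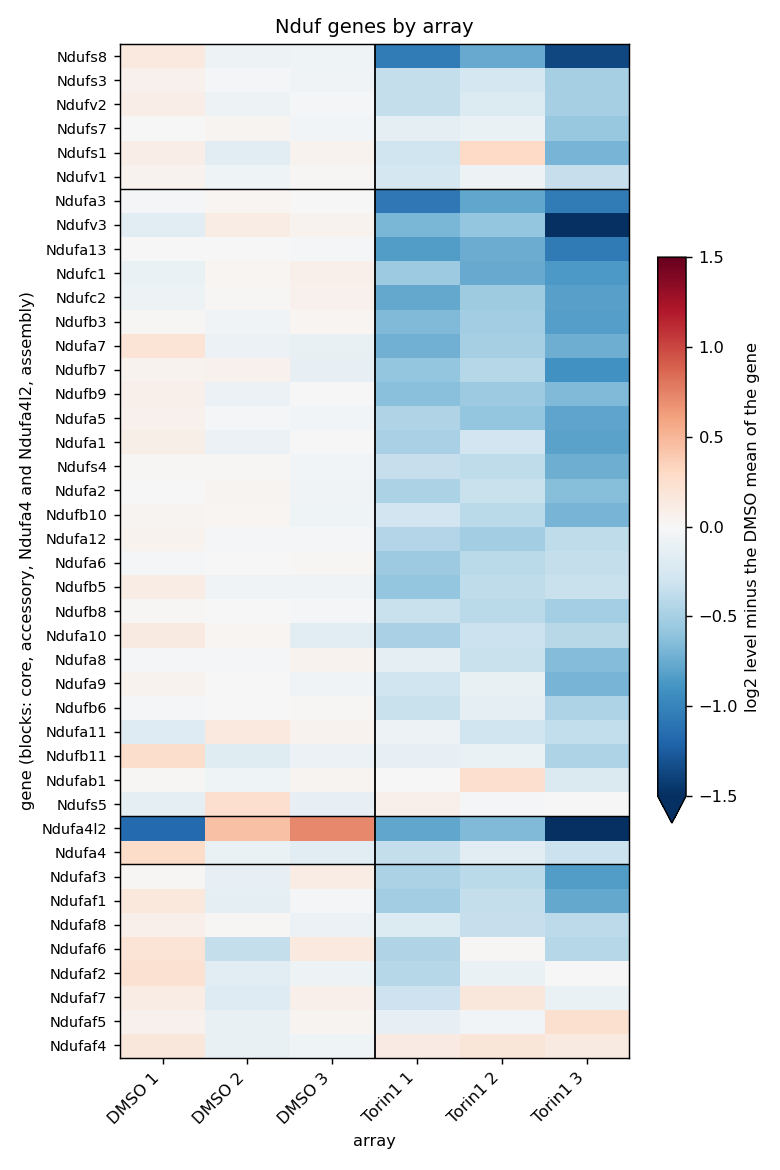
Level of each Nduf gene in each array, as log2 level minus the mean of that gene's 3 DMSO arrays; blue is below and red above that mean, and values under -1.5 take the darkest blue. The Torin1 columns are blue over nearly all subunit genes, most deeply in Torin1 sample 3, while the assembly factor block at the bottom is mixed.

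The core subunits bind the flavin and the iron-sulfur clusters or form the ubiquinone site. Of their 6 measured genes, 2 fell and all 6 changes were below 0, with a median of -0.32. Of all genes, 6.94% were called lower and 47.2% were below 0. Ndufs8 encodes the ferredoxin-like subunit that carries iron-sulfur clusters toward the ubiquinone site. On the log2(intensity + 1) scale used for all gene values, it read 7.12, 6.90 and 6.91 in DMSO and 5.93, 6.22 and 5.61 in Torin1. The groups lay apart by more than their own ranges, and Ndufs8 fell by 1.06 ± 0.16 (SE; limma adjusted p = 0.00641), 2.08-fold on this scale. It was called in each of the 6 leave-outs of 1 array. Ndufs3, a core subunit beside the ubiquinone site, read 6.36, 6.27 and 6.24 in DMSO and 5.93, 6.03 and 5.79 in Torin1. It fell by 0.37 ± 0.09 (limma adjusted p = 0.0338), and its groups did not overlap. That call was lost in every leave-out but that of Torin1 2, with an adjusted p of up to 0.118.

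The other 4 core genes were not called. Ndufv2, an iron-sulfur subunit next to the NADH site, read 8.0, 7.82 and 7.88 in DMSO and 7.54, 7.70 and 7.40 in Torin1. The Torin1 values were all lower, and the change was -0.36 ± 0.10 (limma adjusted p = 0.0643, or 0.0495 without Torin1 2). Ndufv1, which binds NADH and the flavin, read 7.72, 7.60 and 7.68 in DMSO and 7.40, 7.60 and 7.32 in Torin1. Its Torin1 sample 2 reached almost to the lowest DMSO value, and the change was -0.23 ± 0.09 (adjusted p = 0.189). Ndufs7, which holds the last cluster before ubiquinone, read 7.21, 7.26 and 7.17 in DMSO and 7.07, 7.11 and 6.65 in Torin1. Torin1 sample 3 was well below the other Torin1 arrays there, and the change was -0.27 ± 0.13 (adjusted p = 0.267). Ndufs1, a large iron-sulfur subunit of the NADH-oxidising part, read 4.97, 4.71 and 4.91 in DMSO and 4.56, 5.16 and 4.16 in Torin1. Its Torin1 values spanned a whole log2 unit on both sides of the DMSO values, with a change of -0.24 ± 0.24 (adjusted p = 0.672).

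Of the 8 measured accessory genes of the peripheral arm, 6 fell, and all 8 had separate groups. Over all genes 6.94% were called lower, and 14.3% had every Torin1 value below every DMSO value. The median change of the 8 was -0.49. Ndufa5, a small subunit of the matrix-facing arm, read 8.64, 8.56 and 8.53 in DMSO and 8.12, 7.99 and 7.79 in Torin1. Ndufa7 read 5.88, 5.59 and 5.56 in DMSO and 4.96, 5.17 and 4.94 in Torin1. Ndufa12, whose product takes the place of the assembly factor Ndufaf2 late in assembly, read 6.87, 6.79 and 6.78 in DMSO and 6.38, 6.29 and 6.43 in Torin1. In all 3 genes every Torin1 array lay below every DMSO array, and the Torin1 values of Ndufa5 were the most spread. Ndufa5 fell by 0.61 ± 0.10, Ndufa7 by 0.65 ± 0.11 and Ndufa12 by 0.45 ± 0.07 (limma adjusted p = 0.00951, 0.0121 and 0.00979), and each was called in all 6 leave-outs.

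Ndufa6, a subunit of the LYR protein family, read 8.80, 8.82 and 8.83 in DMSO and 8.27, 8.41 and 8.47 in Torin1. Ndufa2, with a thioredoxin-like fold, read 9.25, 9.28 and 9.19 in DMSO and 8.76, 8.90 and 8.60 in Torin1. Ndufs4, whose loss in mice causes an encephalopathy like Leigh syndrome, read 8.48, 8.48 and 8.42 in DMSO and 8.11, 8.08 and 7.72 in Torin1. The DMSO arrays agreed closely for these genes, and the falls were 0.44 ± 0.08, 0.49 ± 0.09 and 0.49 ± 0.11 (limma adjusted p = 0.0130, 0.0175 and 0.0357). Their calls depended on single arrays: Ndufa6 was not called without DMSO 3 (adjusted p = 0.0576), Ndufa2 not without DMSO 1, DMSO 2, DMSO 3 or Torin1 1 (up to 0.065), and Ndufs4 not without DMSO 1, DMSO 2, DMSO 3 or Torin1 2 (up to 0.112).

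Ndufv3, an accessory subunit near the NADH site, had a change nearly as large as that of Ndufs8 and was not called. It read 6.97, 7.24 and 7.19 in DMSO and 6.45, 6.56 and 5.51 in Torin1, a change of -0.96 ± 0.27 (limma adjusted p = 0.0635). Torin1 sample 3 lay about a log2 unit below the other Torin1 arrays, and without it the gene was called (adjusted p = 0.0105). Ndufa9, which helps hold the arms together, had a change of -0.37 ± 0.15 (adjusted p = 0.180), with Torin1 sample 3 again the lowest.

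Of the 17 measured accessory genes of the membrane arm, 11 fell, 0 rose and 6 were not called, with a median of -0.46. The share called lower over all genes was 6.94%. Ndufa3, a small membrane-spanning subunit, read 8.21, 8.25 and 8.22 in DMSO and 7.16, 7.44 and 7.18 in Torin1. Ndufa13, also known as GRIM-19 and as a binding partner of STAT3, read 8.22, 8.22 and 8.19 in DMSO and 7.37, 7.47 and 7.15 in Torin1. In both genes the DMSO arrays were nearly identical and every Torin1 array was far below them. Ndufa3 fell by 0.97 ± 0.10 and Ndufa13 by 0.88 ± 0.10 (limma adjusted p = 0.00124 and 0.00185), or 1.95-fold and 1.84-fold. Over the 6 leave-outs the adjusted p stayed at or below 0.00918 for Ndufa3 and 0.0119 for Ndufa13.

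Ndufc1 and Ndufc2 encode a pair of small subunits that sit together in the membrane arm. Ndufc1 read 6.27, 6.40 and 6.44 in DMSO and 5.82, 5.61 and 5.50 in Torin1. Ndufc2 read 9.37, 9.47 and 9.51 in DMSO and 8.68, 8.91 and 8.63 in Torin1. They fell by nearly the same amount, 0.72 ± 0.10 and 0.71 ± 0.10 (limma adjusted p = 0.00547 and 0.00457). Ndufb3 read 8.66, 8.59 and 8.67 in DMSO and 7.97, 8.12 and 7.81 in Torin1. Ndufb9, another LYR-family subunit, read 8.32, 8.15 and 8.25 in DMSO and 7.62, 7.70 and 7.57 in Torin1. These genes of the distal part of the membrane arm fell by 0.67 ± 0.10 and 0.61 ± 0.08 (limma adjusted p = 0.00535 and 0.00381). All 4 genes were called in each leave-out.

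The remaining 5 called genes of the membrane arm each lost the call in at least 1 leave-out. Ndufb7, which faces the intermembrane space, read 7.89, 7.91 and 7.72 in DMSO and 7.27, 7.41 and 6.93 in Torin1, and fell by 0.64 ± 0.13. Its limma adjusted p was 0.0237, and up to 0.0842 without DMSO 1, DMSO 2, DMSO 3 or Torin1 1. Ndufb8 read 6.91, 6.90 and 6.86 in DMSO and 6.55, 6.49 and 6.38 in Torin1, and fell by 0.42 ± 0.08. This small fall stood out from very even DMSO values (limma adjusted p = 0.0137), and the call was lost without DMSO 1 or DMSO 3 (up to 0.0548). Ndufb10 read 6.34, 6.32 and 6.24 in DMSO and 6.02, 5.89 and 5.61 in Torin1, and fell by 0.46 ± 0.11. Ndufb5 read 6.47, 6.31 and 6.31 in DMSO and 5.78, 5.99 and 6.03 in Torin1, and fell by 0.43 ± 0.10. Ndufa10, which has the fold of a nucleoside kinase, read 8.47, 8.36 and 8.17 in DMSO and 7.84, 8.01 and 7.92 in Torin1, and fell by 0.41 ± 0.10. The groups were separate in all 3, with limma adjusted p = 0.0428, 0.0294 and 0.0415. Ndufb10 was called only without Torin1 1 or Torin1 3 (otherwise up to 0.134), Ndufb5 only without Torin1 3 (otherwise up to 0.102) and Ndufa10 only without DMSO 3 (otherwise up to 0.130).

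The 6 genes of the membrane arm that were not called ranged from near the threshold to a change near 0. Ndufa1, an X-linked gene for a small subunit, was closest to it: 9.33, 9.16 and 9.26 in DMSO against 8.77, 8.97 and 8.45 in Torin1, with a change of -0.52 ± 0.14 (limma adjusted p = 0.0527, or 0.0296 without Torin1 2). Ndufa8 and Ndufb6 also had separate groups, with changes of -0.37 ± 0.13 and -0.31 ± 0.10 (adjusted p = 0.131 and 0.0898), and Ndufb6 was called without Torin1 2 (adjusted p = 0.0417). Ndufa11 and Ndufb11 overlapped between groups, at -0.25 ± 0.12 and -0.23 ± 0.15 (adjusted p = 0.272 and 0.458). With the mean of a gene's probe sets, Ndufa8 was called (limma adjusted p = 0.0303) and Ndufa11 was at -0.073. Ndufs5 was at 0.01 ± 0.12 on a probe set dimmer than the median gene (mean 3.25 in DMSO, 3.26 in Torin1; adjusted p = 0.976).

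Ndufab1, the mitochondrial acyl carrier protein, is part of both arms and also serves fatty acid synthesis in mitochondria. It read 4.50, 4.42 and 4.52 in DMSO and 4.48, 4.73 and 4.27 in Torin1, at 0.01 ± 0.12. Ndufs5 and Ndufab1 were the subunit genes whose change was not below 0. With arrays centred on their medians they were at -0.024 and -0.025, where the median of all genes was -0.027. The 6 dimmest subunit genes, up to the 75th percentile of all genes in brightness, held 1 of the 19 calls, or 16.7% of the 6, with a median of -0.23. Of all genes 6.94% were called lower, and the share among genes of like dimness was not computed. The 18 above the 90th percentile held 11 calls with a median of -0.49, and the 10 between held 7 with a median of -0.44. Of all 2218 genes above the 90th percentile, 12.8% were called lower and the median was 0.045.

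**Figure D3:**
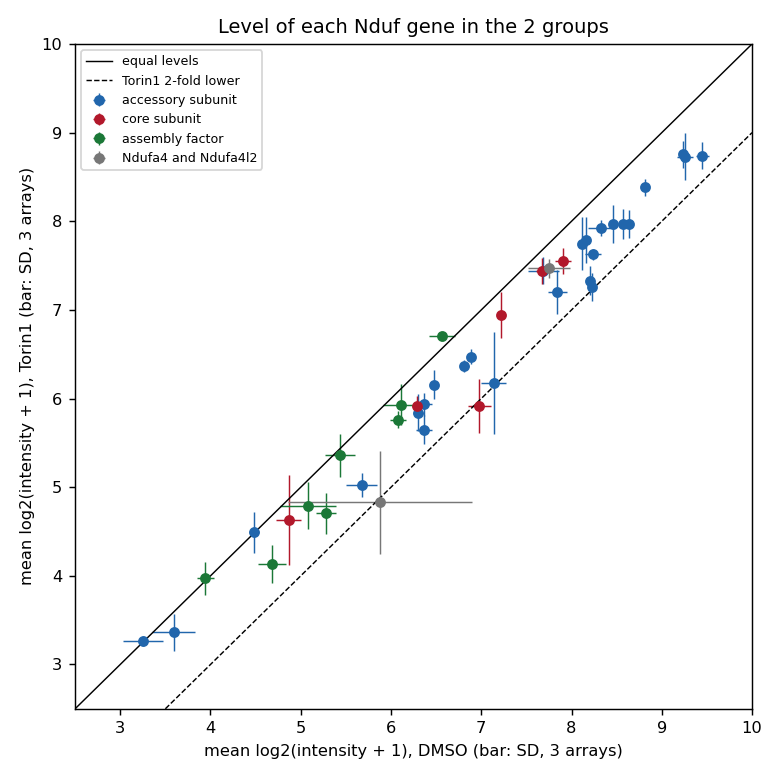
Mean log2(intensity + 1) of each Nduf gene in DMSO (horizontal) and Torin1 (vertical), with bars for the SD over 3 arrays. Nearly all subunit genes lie between the line of equal levels and the dashed line of a 2-fold lower level, and Ndufa4l2 has the widest DMSO bar of the 42 genes.

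Ndufa4, the complex IV subunit, read 8.02, 7.65 and 7.58 in DMSO and 7.39, 7.59 and 7.43 in Torin1. The groups overlapped and the change was -0.28 ± 0.13 (limma adjusted p = 0.250). Ndufa4l2, a hypoxia-inducible paralog of Ndufa4, read 4.72, 6.32 and 6.61 in DMSO and 5.10, 5.22 and 4.16 in Torin1. Its DMSO sample 1 lay far below the other DMSO arrays and within the Torin1 range. The change was -1.05 ± 0.51 (adjusted p = 0.281), and without DMSO 1 it was called (adjusted p = 0.0377).

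Of the assembly factor genes, Ndufaf1 and Ndufaf3 fell and the other 6 were not called. Ndufaf1 belongs to the membrane-bound assembly complex that builds the proximal membrane arm, named the MCIA complex. It read 4.84, 4.54 and 4.66 in DMSO and 4.16, 4.33 and 3.91 in Torin1, and fell by 0.55 ± 0.13 (limma adjusted p = 0.0369). Ndufaf3, which works with Ndufaf4 on the early ubiquinone module, read 5.30, 5.16 and 5.39 in DMSO and 4.80, 4.88 and 4.44 in Torin1, and fell by 0.57 ± 0.13 (limma adjusted p = 0.0318). Neither gene's groups overlapped. Ndufaf1 was called only without Torin1 2 among the leave-outs (otherwise up to 0.120), and Ndufaf3 only without Torin1 2 or Torin1 3 (otherwise up to 0.116).

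Ndufaf4, the partner of Ndufaf3, was not called. It read 6.73, 6.46 and 6.50 in DMSO and 6.68, 6.74 and 6.69 in Torin1, at 0.15 ± 0.09 (limma adjusted p = 0.426). The groups overlapped, and the difference between the partners was not tested. Ndufaf8 read 6.15, 6.10 and 5.98 in DMSO and 5.87, 5.73 and 5.69 in Torin1, at -0.31 ± 0.09 (adjusted p = 0.0589). Ndufaf5, the hydroxylase of an arginine in Ndufs7 and the partner of Ndufaf8, read 4.01, 3.83 and 3.98 in DMSO and 3.82, 3.90 and 4.19 in Torin1. Ndufaf8 thus had separate groups just short of a call, while Ndufaf5 was dim and at 0.03 ± 0.11 (adjusted p = 0.941).

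Ndufaf2 read 6.33, 5.95 and 6.04 in DMSO and 5.68, 6.0 and 6.12 in Torin1. Ndufaf6, which acts early in the assembly of the membrane arm, read 5.28, 4.72 and 5.23 in DMSO and 4.63, 5.10 and 4.65 in Torin1. Ndufaf7, an arginine methyltransferase, read 5.55, 5.25 and 5.51 in DMSO and 5.13, 5.61 and 5.34 in Torin1. All 3 overlapped between groups, with changes of -0.17 ± 0.15, -0.28 ± 0.19 and -0.08 ± 0.14 (limma adjusted p = 0.589, 0.462 and 0.845).

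Among 14 measured assembly factors of complex I with other symbols, 4 fell, 0 rose and 10 were not called, with a median of -0.30 and 13 below 0. Of all genes, 6.94% were called lower and 47.2% were below 0, against 28.6% and 92.9% of this list. Lyrm2, a LYR protein needed for the NADH-oxidising module, fell by 1.38 ± 0.21 (limma adjusted p = 0.00674), from 5.89 ± 0.32 to 4.51 ± 0.32 (SD, n = 3 each). Nubpl, which delivers iron-sulfur clusters to the complex, fell by 0.60 ± 0.13 (limma adjusted p = 0.0279). Tmem126a and Dmac1, which act on the distal membrane arm, fell by 0.79 ± 0.16 and 0.37 ± 0.07 (limma adjusted p = 0.0194 and 0.0173). Of the partners of Ndufaf1 in the MCIA complex, Acad9, Tmem126b and Ecsit were not called. Acad9 and Tmem126b were both at -0.55 ± 0.17 (limma adjusted p = 0.0873 and 0.0887) and Ecsit at -0.01 ± 0.24 (adjusted p = 0.993). Timmdc1 and Tmem186 of the same list were not called either, at -0.08 ± 0.08 and -0.23 ± 0.13 (adjusted p = 0.655 and 0.345).

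Several subunits were read only by probe sets that also name another gene, so their values are shared with that gene and they are left out of the counts above. With such probe sets included, 25 of 41 subunit symbols and 6.98% of all genes were called lower. A shared probe set counts there once for each symbol it names, so the 41 are not separate measurements. The brighter of the probe sets naming Ndufs6, a zinc-binding subunit, with its copy Ndufs6b read 8.98, 8.84 and 8.84 in DMSO and 8.07, 7.96 and 7.60 in Torin1, a difference of -1.01. That of Ndufb4 with its copies Ndufb4b and Ndufb4c read 6.61, 6.48 and 6.46 in DMSO and 5.79, 5.90 and 6.0 in Torin1 (-0.62). The probe set naming Ndufb2 with Adck2 gave 6.39, 6.32 and 6.33 in DMSO and 5.74, 5.83 and 5.59 in Torin1 (-0.63). In each of these every Torin1 array was below every DMSO array. The probe set naming Ndufs5 with Ndufs5-ps was brighter than that of Ndufs5 alone and differed by -0.53, against 0.01 for the latter. Ndufs1, counted above on a probe set of its own, was also named with Ino80dos by a dim one (mean 2.88 in DMSO), which differed by 0.17.

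Promoter sequences were read from RefSeq on GRCm38.p6 for the 37 members that matched, as windows of 300 bases from 250 before to 50 after each start site. They were searched on both strands for 4 motifs of 7 letters: GCATGCG for NRF1, CCGGAAG for ETS factors such as Gabpa, AAGGTCA for ERR receptors and ATGGCGG for YY1, all known regulators of nuclear genes for mitochondrial proteins. GCATGCG overlaps its own reverse complement, and ATGGCGG begins with the letters of a start codon. The NRF1 letters were in 5 of 37 member genes (13.5%), in 5.12% of the 16918 tested genes with such a window and in 4.01% of all 27025 genes with one. The YY1 letters were in 9 of 37 (24.3%), 5.95% and 4.69%, and the ETS letters in 6 of 37 (16.2%), 12.7% and 9.93%. The ERR letters were in 1 of 37 (2.7%), 4.66% and 5.38%. At least 1 motif was in 9 of the 19 members called lower (47.4%) and in 11 of the 18 not called (61.1%), against 24.9% of the tested genes and 29.4% of the tested genes called lower.

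The ETS letters were in 4 of the 19 members called lower and in 2 of the 18 not called. These counts were 4 and 5 for the YY1 letters, 1 and 4 for NRF1, and 0 and 1 for ERR. The differences were not tested. Upstream ETS letters also stood in Ndufaf8 and Ndufb6, which were not called and are not shown. The stretches below are examples from the upstream sequence, with the motif in capitals. First come 4 members that fell (ETS letters in the first 3, NRF1 letters in the fourth). Then follow 3 that were not called, in which the NRF1 letters formed a palindrome read on both strands.
Ndufs3 (chr2:90904722-90904778, minus strand): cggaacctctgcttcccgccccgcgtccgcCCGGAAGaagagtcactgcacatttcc
Ndufb7 (chr8:83566708-83566757, plus strand): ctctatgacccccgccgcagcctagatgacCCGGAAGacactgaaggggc
Ndufaf1 (chr2:119662835-119662882, minus strand): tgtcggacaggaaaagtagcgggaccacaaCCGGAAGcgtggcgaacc
Ndufa6 (chr15:82354338-82354404, minus strand): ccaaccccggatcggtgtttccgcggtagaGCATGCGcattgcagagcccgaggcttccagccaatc
Ndufa11 (chr17:56717673-56717740, plus strand): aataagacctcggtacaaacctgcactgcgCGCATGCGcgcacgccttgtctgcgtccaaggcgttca
Ndufa8 (chr2:36049339-36049377, minus strand): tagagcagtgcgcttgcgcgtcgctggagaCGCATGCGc
Ndufaf4 (chr4:24897941-24898008, plus strand): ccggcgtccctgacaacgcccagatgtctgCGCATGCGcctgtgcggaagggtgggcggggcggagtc

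The palindrome was also found just after the start site of Ndufaf5. All 4 of these genes were among the members not called, at -0.25 for Ndufa11, -0.37 for Ndufa8, 0.15 for Ndufaf4 and 0.03 for Ndufaf5. Ndufa6, with the same letters without the palindrome, fell by 0.44. Ndufs8 held the ETS letters after its start site, on the minus strand. This grouping was noticed after the values were seen.

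Of 16 regulators of mitochondrial gene transcription, 1 rose, 0 fell and 15 were not called, with a median of 0.19 and 14 above 0 (at an unadjusted p below 0.05 in limma, 0 were lower and 5 higher). Of all 22180 genes, 5.13% were called higher, and at the unadjusted threshold 2813 were lower and 2515 higher. The called gene was Pprc1, a coactivator of the PGC-1 family, which rose by 0.67 ± 0.16 (limma adjusted p = 0.0380), from 5.97 ± 0.33 to 6.64 ± 0.07 (SD, n = 3 each). Nrf1, Gabpa and Yy1 were at 0.19 ± 0.10, 0.27 ± 0.10 and 0.31 ± 0.11 (adjusted p = 0.308, 0.129 and 0.124), and Esrra at 0.12 ± 0.10 (adjusted p = 0.576). Ppargc1a, the coactivator PGC-1alpha, was dim in both groups (2.71 ± 0.16 and 2.62 ± 0.05).

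Genes for the making of iron-sulfur clusters, the cofactors of the peripheral arm, had changes on both sides of 0. Of 11 measured, 0 fell, 1 rose and 10 were not called, with a median of -0.10 (at an unadjusted p below 0.05 in limma, 3 were lower and 2 higher). The shares over all genes are those given for the regulators above. Fdx1, a ferredoxin of steroid synthesis that was counted in this list, rose by 1.97 ± 0.12 (limma adjusted p = 0.000229). Whether its rise bears on cluster making was not tested. Nfu1, which hands clusters to target proteins, was at -0.33 ± 0.09 (adjusted p = 0.0566).

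Genes of the other respiratory complexes fell too. Of 45 genes of complexes II to V, 19 fell, 0 rose and 26 were not called, with a median of -0.35 and 41 below 0, against 19 of 34 and -0.44 for the complex I subunit genes. By complex, 2 of 8 genes of complex II fell (median -0.34), 2 of 8 of complex III (-0.32), 8 of 13 of complex IV (-0.40) and 7 of 16 of complex V (-0.41). The lists are not alike. That of complex II includes the assembly factors Sdhaf1 to Sdhaf4, of which Sdhaf4 was called. The 34 leave out the assembly factors of complex I but include Ndufa4 and Ndufa4l2. Examples are Sdhc of complex II, which fell by 0.58 ± 0.08, Uqcr11 of complex III by 0.72 ± 0.08, and Atpif1, the inhibitor of the ATP synthase of complex V, by 0.66 ± 0.07 (limma adjusted p = 0.00593, 0.00171 and 0.00176). Of 71 genes of mitochondrial ribosomal proteins, 10 fell (14.1%), 1 rose and 60 were not called (median -0.18). Of all genes 6.94% were called lower, and of genes above the median level 12.6%. The differences between these lists were not tested.

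**Figure D4:**
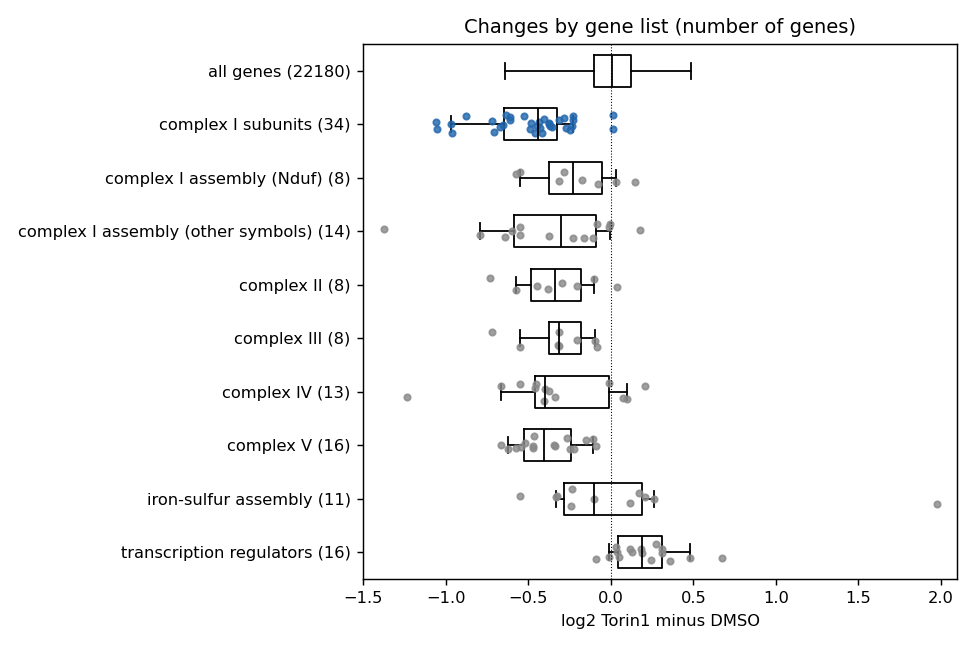
Log2 Torin1 minus DMSO for all genes and for the lists named in the text, with the number of genes in parentheses; boxes show quartiles and median, whiskers the 5th to 95th percentile, and points single genes. The box of the complex I subunits (median -0.44) overlaps those of complexes II to V, while that of the transcription regulators (median 0.19) lies above 0.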

How the data were processed

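RNA was amplified with the NuGEN Ovation Pico WTA system, labelled with biotin and read on 6 arrays. The deposited values are intensities, 1 per probe set and array on a linear scale, computed by the authors; RMA, GCOS and Affymetrix Expression Console 1.1 are named in the submitters' processing notes, without settings. The array's genome build is not given here. Array medians were 11.12 to 11.97, and precision is limited by there being 6 arrays. Of 41345 probe sets, 23521 named 1 gene, 1814 several and 16010 none. For each of 22180 genes the brightest probe set over all arrays was kept, and log2(intensity + 1) was used, which understates the change of dim genes. The groups were set against each other in limma (version 3.58.1, R version 4.3.3; lmFit, eBayes, two-sided, no covariate or filter, Benjamini-Hochberg over all genes, called below an adjusted p of 0.05), and this fit was first checked on simulated data with known changes. With 3 arrays a group, the design allows no exact permutation p below 0.1. Entrez identifiers of all 42 members matched RefSeq, and 37 had a promoter.

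Members and lists were chosen with earlier results of these data known. Named with every array's value were called members, core subunits and assembly factors; others were given by range or where a count needed them. Cell type markers were fixed lists. Alternatives were another pseudocount, a filter on dim genes, other probe set rules, other scalings, an intensity trend, array weights, leaving out each array, a replicate block and Torin1 samples 2 and 3 as 1 sample.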

Additional observations from a re-analysis of the deposited data

How the results depend on the processing

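Of 17 alternatives, all kept the medians of both groups below 0, from -0.525 to -0.386 for subunits and from -0.284 to -0.121 for assembly factors. The -0.525 came with probe sets naming several genes, where a shared probe set counts once for each symbol. Leaving out 1 array gave 1518 to 3083 changed genes, 11 to 18 subunit genes called lower and 0 to 2 assembly factor genes called (1 without Torin1 3, and 0 without DMSO 1, DMSO 2, DMSO 3 or Torin1 1). Deviations from the group means correlated at -0.207, -0.299 and -0.148 between arrays with the same replicate number in the labels. With means of only 3 arrays, these values cannot settle whether the samples were paired. With the replicate number as a block, 1565 genes changed, 11 subunit genes were called lower and 0 assembly factor genes were called. Of the 21 called members, 10 stayed called in every leave-out.

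Directions reversed for 4 members, none of them called. Ndufab1 was at -0.0246 with arrays centred on their medians and -0.0173 with quantile normalization, Ndufaf5 at -0.00857 and -0.0102, and Ndufs5 at -0.0243 and -0.0192. Ndufaf5 was also at -0.055 with array weights and -0.00841 with Torin1 samples 2 and 3 as 1 sample, and Ndufs5 at -0.534 when probe sets naming several genes were used. Over the leave-outs the changes ran from -0.107 to 0.126 for Ndufab1, -0.0798 to 0.101 for Ndufaf5, -0.0551 to 0.14 for Ndufs5 and -0.204 to 0.0354 for Ndufaf7. The median of all genes was also below 0 with arrays centred on their medians (-0.0269) and with quantile normalization (-0.0153), against 0.00983 in the main fit. The causes of the other reversals were not tested. The probe sets of Ndufs5 and Ndufaf5 were dimmer than the median gene, which limits what can be read of them.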
